A study of Mus musculus with 145 samples.

Results

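The cells described here are the 33 cells of the cluster RPG4 and the 261 cells of the cluster RPG3, together 294 of the 4464 cells of the STRT-seq experiment with an annotation. Both clusters were taken from the authors' cell annotation. RPG1 to RPG4 are the authors' names for clusters along the reprogramming of spermatogonial stem cells (SSCs), the stem cells of the male germline, towards pluripotency. RPG3 holds cells that express the pluripotency network, and RPG4 was marked by *Eomes*, *Fgf5*, *Sp8*, *Zic5* and *Marcks*. The comparison asks which genes differ between these clusters.

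The SSCs were derived from neonatal males of a cross of C57BL/6 females with DBA/2 males, and all cells used here carry a transgene in which an *Oct4* promoter drives EGFP. They were cultured in StemPro-34 with EGF, bFGF, GDNF and ESGRO on inactivated embryonic fibroblast feeders, and reprogrammed without added chemicals. Cells of RPG3 were collected on days 12, 18, 20 and 23 and cells of RPG4 on days 14, 20, 23 and 27, by mouth pipette from SSC-like and pluripotent colonies, so that the number of cells describes what was picked. Modified STRT-seq counts unique molecular identifiers (UMIs), and the unnormalised UMI counts were summed per library and cluster. A separate scTrio-seq2 experiment gave RNA of 285 cells predicted to be RPG3 and 22 predicted to be RPG4, from cultures with DMSO, the vehicle (day 20), or with 5C (days 12, 14 and 16), a mixture of SGC707, vitamin C, EGCG, Daphnetin and TUDCA.

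RPG4 was spread thinly. Of its 33 cells, 23 came from day 20, 5 from day 27, 3 from day 14 and 2 from day 23, and 30 belonged to batch B1 against 131 of the 261 RPG3 cells. Only 2 libraries, replicates 1 and 2 of day 20, held at least 5 RPG4 cells (8 and 13 cells, 2518163 and 4966558 UMIs), and 8 libraries held at least 5 RPG3 cells (7 to 65 cells, 1570976 to 17474953 UMIs). The main test of the STRT-seq cells compares these 2 sums with these 8, and both RPG4 sums share their library with an RPG3 sum. Cells had a median of 345221 UMIs in RPG4 and 285699 in RPG3, and mitochondrial UMIs made up a median of 0.577% and 0.715%. No label says that libraries came from cultures of their own, so an adjusted p measures the spread between libraries, which may be technical. The clusters were drawn from the same transcriptomes, so the comparison describes them and is no independent test of the division.

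Pluripotent cells of the mouse pass through several states. In the naive state, which resembles the epiblast of the blastocyst, transcription factors such as *Esrrb*, *Nr0b1*, *Tfcp2l1*, *Klf4* and *Tbx3* are active beside the core factors *Pou5f1*, *Sox2* and *Nanog*. In the formative and primed states, which resemble the epiblast after implantation, the naive factors are switched off and genes such as *Fgf5*, *Otx2* and *Pou3f1* are expressed. Wnt, Nodal and FGF signals then induce the primitive streak, where *T*, *Eomes*, *Mixl1* and *Foxa2* precede mesoderm and endoderm.

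The promoters of 4 genes of the comparison follow for reference, a streak gene that responds to Wnt, the leading marker of RPG4, an epiblast gene and a naive factor. Each is the 250 bases before the RefSeq start on the plus strand of GRCm38.p6, 5′ to 3′. Capitals mark CTTTGA, a core of TCF/LEF sites (either strand), or ACACCT, the opposite strand of AGGTGT, a core of T-box sites. The motifs and the promoters shown were chosen after the values were seen.
*Sp5*, chr2:70474673-70474922: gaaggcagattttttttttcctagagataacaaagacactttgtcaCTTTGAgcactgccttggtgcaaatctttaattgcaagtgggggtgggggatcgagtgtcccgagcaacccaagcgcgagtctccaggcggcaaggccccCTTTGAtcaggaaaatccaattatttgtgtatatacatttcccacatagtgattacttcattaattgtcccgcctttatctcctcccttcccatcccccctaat
*Eomes*, chr9:118477939-118478188: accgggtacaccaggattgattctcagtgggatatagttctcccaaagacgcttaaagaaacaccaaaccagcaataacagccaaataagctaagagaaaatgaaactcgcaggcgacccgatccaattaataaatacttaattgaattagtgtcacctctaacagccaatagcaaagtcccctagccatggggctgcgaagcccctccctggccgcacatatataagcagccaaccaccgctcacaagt
*Fgf5*, chr5:98253934-98254183: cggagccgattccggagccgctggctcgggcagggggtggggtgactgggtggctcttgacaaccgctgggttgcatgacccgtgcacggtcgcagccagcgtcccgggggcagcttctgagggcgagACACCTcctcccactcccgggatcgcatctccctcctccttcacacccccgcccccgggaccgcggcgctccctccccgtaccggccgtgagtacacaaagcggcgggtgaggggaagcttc
*Nr0b1*, chrX:86191525-86191774: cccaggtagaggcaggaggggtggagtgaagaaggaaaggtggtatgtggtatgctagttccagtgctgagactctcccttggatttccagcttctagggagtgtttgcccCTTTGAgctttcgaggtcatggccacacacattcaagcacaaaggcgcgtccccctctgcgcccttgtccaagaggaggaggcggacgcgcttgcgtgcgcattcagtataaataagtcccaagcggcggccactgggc
*Sp5* holds CTTTGA at 2 places, 204 to 199 and 104 to 99 bases before the start, *Nr0b1* holds it 139 to 134 bases before, *Fgf5* holds ACACCT 122 to 117 bases before, and *Eomes* has neither. The TCF/LEF core occurs in 13.8% of the 32851 RefSeq promoters of this length and the T-box core in 11.8%, so these matches are a description of the letters and not of sites in use.

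Over all genes, 14600 were tested, of which 174 (1.19%) were called higher in RPG4 and 298 (2.04%) lower, at an adjusted p below 0.01 and a natural-log fold change of at least 1 (1.44 on the log2 scale; edgeR quasi-likelihood test, Benjamini-Hochberg). With an adjusted p below 0.05 and no fold limit, 544 genes (3.73%) were higher and 783 (5.36%) lower. Every RPG4 sum lay above every RPG3 sum for 10.4% of all genes and below for 10.9%. The median log2 fold change of all genes was -0.10. Scaling by library totals alone moved all genes by 0.12 on the log2 scale and the share of higher genes among the calls from 36.9% to 44.8%. Expression is given as CPM, UMI counts scaled to the library total, with TMM factors for single genes in the sums. Levels summed over a list, levels in single cells and levels in RPG4 cells outside the sums carry no TMM factors. The same holds in scTrio-seq2 for levels pooled over the sums and for *Fgf5*. Log2 fold changes are RPG4 against RPG3 with their standard errors. In sums of cells, fewer cells of a type and less RNA per cell cannot be told apart. When a library was left out with both its sums, so that the lone RPG4 sum was assumed to vary like the RPG3 sums, the calls numbered 51 higher and 133 lower without day 20 replicate 1, 34 and 103 without replicate 2, and 302 and 458 without day 12 replicate 2, whose RPG3 sum holds 7 cells. Both RPG4 sums belong to batch B1. Within B1 alone 260 genes were called higher and 422 lower, and with batch as a covariate 127 and 311. The covariate ended the calls of *Foxa2*, *Sox17*, *Sp5*, *Lin28b*, *Bmp2*, *Krt7*, *Fabp7*, *Frzb*, *C78283*, *Foxj1*, *Enkur*, *Drc1*, *Nme5* and *Lrriq1* (adjusted p of 0.0103 to 0.03), and *Klf2* and *Pfkp* were then called (0.00975 and 1.36e-05). With the library as a replicate block, in which the sums of 1 library are compared with each other, 273 and 370 genes were called. Of the genes named here, *Sp8*, *Sp5*, *Lgr5*, *Thsd7a*, *Fabp7*, *Slco4c1* and *Drc1* were then no longer called (adjusted p of 0.0123 to 0.133), and *Klf2*, *T*, *Lefty1*, *Tet3*, *Cdh2*, *Krt18* and *Pfkp* were (4.67e-09 to 0.00157). With sums of at least 1 cell, which bring in all 33 RPG4 cells, *Sox11*, *Lin28b*, *Foxa2*, *Sp5* and *Rfx3* lost their call (adjusted p of 0.0158 to 0.0952), as did *C78283*, *Aldh1b1* and *Rnf125* (0.326 to 0.531), and *Klf2*, *Lefty1* and *Fn1* were called (4.2e-05 to 0.00375). Of 67 called genes named below, none changed direction under any of the alternatives and 16 stayed called under all of them.

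**Figure D1:**
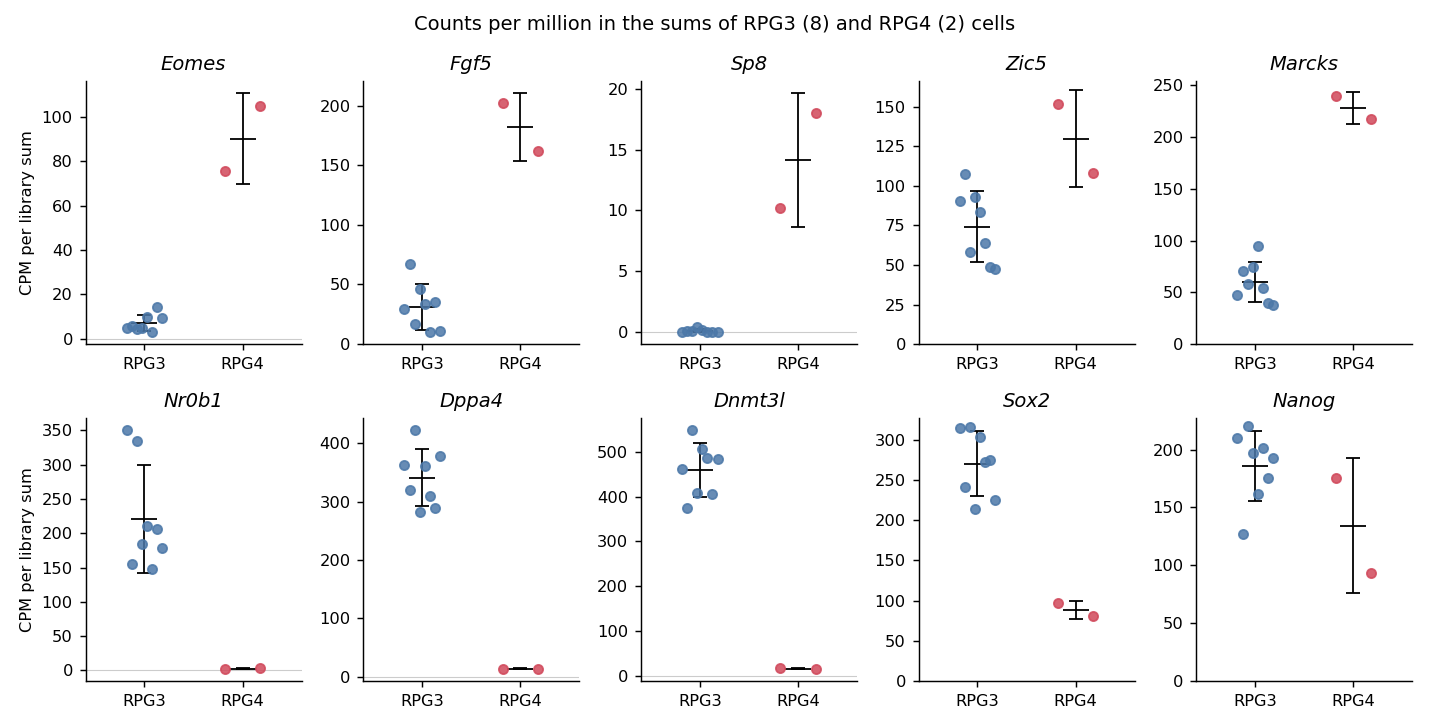
Expression of 10 genes in the sums of RPG3 (8 libraries) and RPG4 (2 libraries). Each point is the CPM of 1 sum and the bars give mean ± SD. *Eomes*, *Fgf5*, *Sp8* and *Marcks* lie higher in both RPG4 sums, *Nr0b1*, *Dppa4*, *Dnmt3l* and *Sox2* lie lower, and *Nanog* overlaps.

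Of the 5 markers of RPG4, 4 were higher and *Zic5* did not pass the test. *Eomes* (chr9:118478212-118486132), a T-box factor of the primitive streak and of trophoblast, was measured at 2.96 to 14.3 CPM (median 5.49) in RPG3 and at 75.8 and 105 CPM in RPG4. Both sums lay far above the highest RPG3 library, and the log2 fold change was 3.65 ± 0.46 (adjusted p = 5.42e-05). *Fgf5* (chr5:98254184-98277030), an FGF ligand of the epiblast after implantation, had 9.55 to 67.2 CPM (median 31.5) in RPG3 and 202 and 162 CPM in RPG4, a change of 2.55 ± 0.47 (adjusted p = 0.00217). *Marcks* (chr10:37133375-37138920), a substrate of protein kinase C at the membrane, had 37.7 to 95 CPM (median 56.2) in RPG3 and 239 and 217 CPM in RPG4, a change of 1.93 ± 0.28 (adjusted p = 0.000245). *Sp8* (chr12:118846329-118852576), a zinc finger factor of limb and brain development, had 0 to 0.372 CPM in RPG3 and 10.2 and 18.1 CPM in RPG4 (7.05 ± 1.08, adjusted p = 0.000404). Its RPG4 UMIs came from 7 of the 33 cells, and 1 cell gave 40.3% of them. *Zic5* (chr14:122456795-122465677), a zinc finger factor of the neural plate and epiblast, had 47.2 to 107 CPM (median 73.8) in RPG3 and 152 and 108 CPM in RPG4. The RPG4 sums were above every RPG3 sum, the lower by less than 1 CPM, and the difference of 0.81 ± 0.30 did not pass (adjusted p = 0.107). Without day 20 replicate 2, *Eomes* and *Sp8* lost their call (adjusted p = 0.0107 and 0.0411), without replicate 1 *Marcks* did (0.0159), and *Fgf5* did without either (0.0537 and 0.0394).

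Cell by cell, the markers differed in how widely they were detected. After thinning to 100000 UMIs, *Marcks* had a UMI in 32 of 32 RPG4 cells (95% interval 89.1% to 100%) and in 72.0% of the 243 RPG3 cells deep enough (65.9% to 77.6%), against 13% of 1880 SSC1-4 cells. *Fgf5* was detected in 87.5% of RPG4 cells (71% to 96.5%), 40.7% of RPG3 cells (34.5% to 47.2%) and 1.81% of SSC1-4 cells, and *Eomes* in 75% (56.6% to 88.5%), 24.3% (19% to 30.2%) and 24.5%. The *Eomes* shares of RPG3 and SSC1-4 lay close after thinning, whereas without it they were 41.8% (35.7% to 48.0%) and 31.2% (29.3% to 33.1%). *Zic5* was detected in 81.2% of RPG4 cells and 83.5% of RPG3 cells, with overlapping intervals (63.6% to 92.8% and 78.3% to 88.0%). *Sp8* was detected in 18.8% (7.21% to 36.4%), 0.823% (0.0998% to 2.94%) and 0.745%. Without thinning the shares in RPG4 were 100%, 97.0%, 84.8%, 81.8% and 21.2% for *Marcks*, *Fgf5*, *Eomes*, *Zic5* and *Sp8*. SSC1-4 cells had a median of 248474 UMIs. These intervals are exact binomial, cover counting error only and treat the cells as separate draws, although they come from few libraries. At full depth, 21 of the 33 RPG4 cells had a UMI of 4 of the 5 markers and 5 had all 5, against 54 and 1 of the 261 RPG3 cells.

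Some core pluripotency genes were much lower in RPG4, while *Nanog* and *Pou5f1* did not pass the test. Of 14 genes tested, 4 were lower, none was higher, and the median was -0.52. *Dppa4* (chr16:48283733-48294237), a chromatin protein of pluripotent and germ cells, had 282 to 423 CPM (median 340) in RPG3 and 13.6 and 14.2 CPM in RPG4, a change of -4.61 ± 0.24 (adjusted p = 1.35e-09). *Dppa5a*, an RNA-binding protein of pluripotent cells, had 983 to 1467 CPM (median 1372) in RPG3 and 75.8 and 95.5 CPM in RPG4 (-3.91 ± 0.19, adjusted p = 1.26e-09). The change of *Gdf3*, a TGF-beta family ligand, was -2.98 ± 0.45 (adjusted p = 0.000357), from a median of 185 CPM to 37.5 and 9.22 CPM. *Sox2*, which binds DNA with *Pou5f1*, had 214 to 316 CPM (median 274) in RPG3 and 96.6 and 80.6 CPM in RPG4 (-1.61 ± 0.20, adjusted p = 5.88e-05), and still had a UMI in 31 of the 33 RPG4 cells. *Nanog* had 127 to 220 CPM (median 195) in RPG3 and 175 and 92.9 CPM in RPG4, so that the groups overlapped (-0.47 ± 0.24, adjusted p = 0.237). *Pou5f1* had 17 to 79 CPM (median 27.6) in RPG3 and 30.7 and 16 CPM in RPG4 (-0.60 ± 0.55, adjusted p = 0.525). *Utf1*, a chromatin factor, was lower in both sums (434 and 391 CPM against 544 to 876 CPM) with a difference of -0.89, under the fold limit (adjusted p = 0.00201). *Sox2* and *Gdf3* lost the call without day 20 replicate 2 (adjusted p = 0.0151 and 0.017), whereas *Dppa4* and *Dppa5a* kept it without any library. The summed level of the 14 genes was 4400 to 5304 CPM in RPG3 and 2440 and 2630 CPM in RPG4.

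The naive network was lower nearly throughout. Of 18 genes tested, 13 were lower and none was higher, with a median log2 fold change of -4.46, and for 15 both RPG4 sums lay below every RPG3 sum. Summed over the 18 genes, RPG3 libraries held 1698 to 2628 CPM (median 2117) and the RPG4 sums 385 and 417 CPM. *Nr0b1* (chrX:86191764-86195947, promoter above), a nuclear receptor that partners with *Esrrb* and *Pou5f1*, had 148 to 351 CPM (median 195) in RPG3 and 2.27 and 2.95 CPM in RPG4, with 22 UMIs in the 21 cells of the 2 sums. Its change was -6.35 ± 0.48 (adjusted p = 1.83e-07). *Esrrb*, an orphan nuclear receptor at the centre of the naive network, had 54.1 to 182 CPM (median 68.2) in RPG3 and 3.03 and 2.03 CPM in RPG4 (-5.06 ± 0.59, adjusted p = 2.58e-05). *Tfcp2l1*, a target of LIF and STAT3, went from a median of 47.0 CPM to 1.52 and 0.922 CPM (-5.54 ± 0.81, adjusted p = 0.000259), and *Tbx3* from 41.7 CPM to 2.27 and 0.369 CPM (-5.25 ± 0.79, adjusted p = 0.000324).

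Among the Krüppel-like factors, *Klf4* had 36.8 to 230 CPM in RPG3 and 0.379 and 4.42 CPM in RPG4 (-4.55 ± 0.95, adjusted p = 0.00518). *Klf5* had 156 to 329 CPM against 40.9 and 60.6 CPM (-2.27 ± 0.29, adjusted p = 6.09e-05). *Klf2* had 37.6 to 226 CPM against 25 and 37.2 CPM and did not pass (-2.02 ± 0.51, adjusted p = 0.0172). *Zfp42*, known as Rex1, was lower by 3.95 on the log2 scale, *Nr5a2* by 4.45 and *Tcl1*, a coactivator of AKT, by 3.99. *Fgf4*, the ligand through which naive cells drive their own differentiation, had 96.6 to 217 CPM in RPG3 and 6.44 and 6.45 CPM in RPG4 (-4.46 ± 0.39, adjusted p = 9.71e-07). *Fgf5* and *Fgf4* thus lay on opposite sides in both sums. *Gbx2*, *Stat3* and *Socs3* did not pass the test. *Klf4*, *Tfcp2l1* and *Nr5a2* lost their call without either RPG4 library (adjusted p of 0.0119 to 0.0912), and *Tbx3* and *Tet2* without day 20 replicate 2 (0.0232 and 0.0214).

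**Figure D2:**
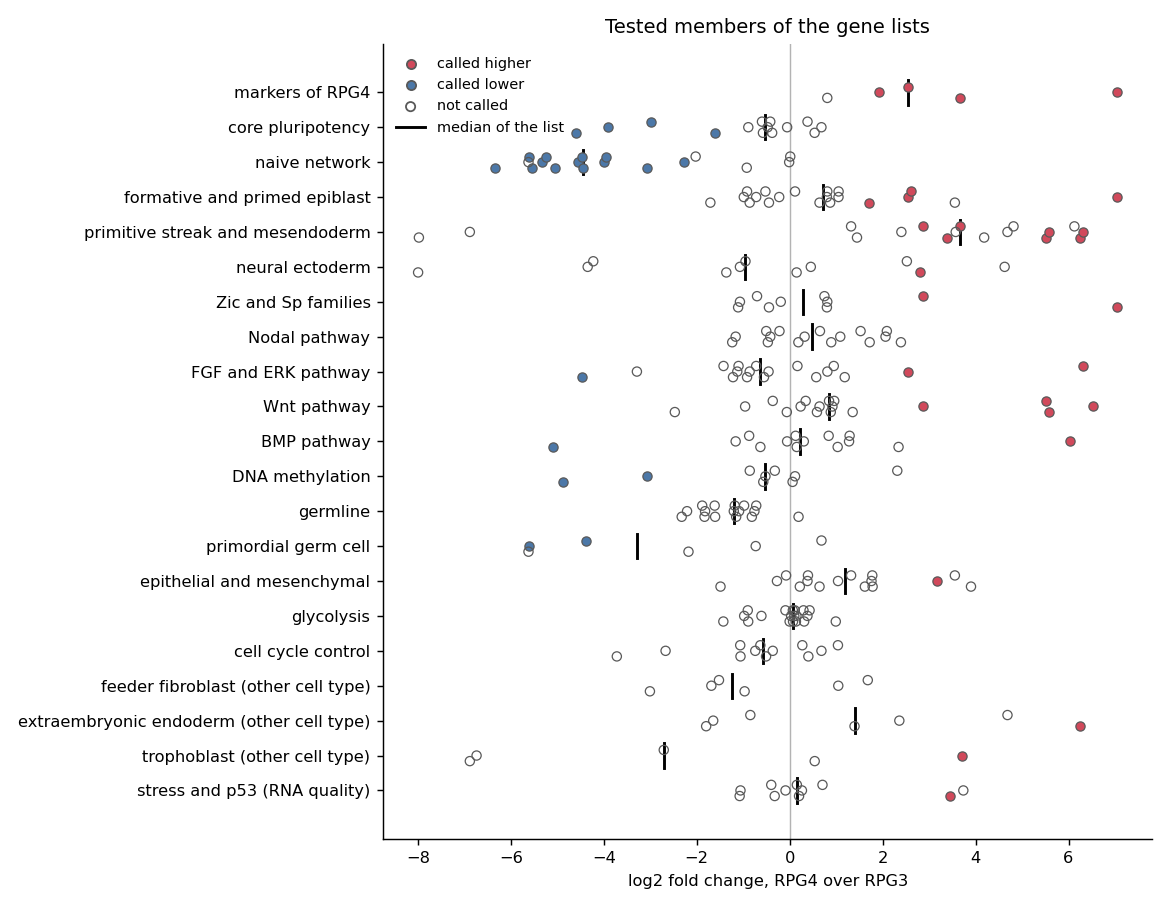
Log2 fold change of RPG4 against RPG3 for every tested member of 21 gene lists. Filled points passed the test, open points did not, and the black line is the median of the list. The naive network sits to the left with a median of -4.46 and the primitive streak list to the right with 3.65.

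Genes of the formative and primed epiblast did not move as a block. Of 20 tested, 4 were higher and none was lower, with a median of 0.72. Beside *Fgf5* and *Sp8* these were *Sox11* and *Lin28b*. *Sox11*, an SRY-box factor of neural and epiblast cells, had 27.7 to 86.2 CPM (median 58.0) in RPG3 and 192 and 190 CPM in RPG4 (1.71 ± 0.29, adjusted p = 0.000943). *Lin28b*, which blocks the maturation of let-7, had 2.55 to 19.9 CPM in RPG3 and 40.2 and 59.7 CPM in RPG4 (2.60 ± 0.58, adjusted p = 0.00873), and the call was lost without each of 6 libraries in turn. It was also common in the spermatogonial clusters, with a UMI after thinning in 62.5% of RPG4, 29.2% of RPG3 and 49.7% of SSC1-4 cells. *Otx2*, the homeobox factor that leads naive cells into the formative state, had 131 to 322 CPM (median 198) in RPG3 and 100 and 108 CPM in RPG4, a difference of -0.99 ± 0.28 that did not pass (adjusted p = 0.0362). It had a UMI in 30 of the 33 RPG4 cells and 250 of the 261 RPG3 cells. *Pou3f1*, known as Oct6, overlapped, with 56.8 to 165 CPM against 69.3 and 97.5 CPM (-0.23 ± 0.36, adjusted p = 0.732). *Tead2* was above every RPG3 sum in both RPG4 sums (177 and 197 CPM against 61.6 to 150 CPM), under the fold limit and short of the threshold (1.05 ± 0.27, adjusted p = 0.0191), and *Dnmt3b* differed by 0.11 (adjusted p = 0.707). *Sox11* lost its call without either RPG4 library (adjusted p = 0.0309 and 0.0424). *Sox11*, like *Fgf5*, had a UMI in 32 of the 33 RPG4 cells.

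In the reported fit, though not under every alternative, the primitive streak and mesendoderm list had the highest median of the 21 lists. Of 22 genes, 17 had enough counts to be tested, and 7 of these were higher and none lower, with a median of 3.65. The summed level of the list was 20.0 to 82.2 CPM in RPG3 and 351 and 650 CPM in RPG4. *Eomes*, described above, was the member that most cells shared. *Wnt3* (chr11:103774150-103817957), the Wnt ligand that starts the streak, had 0.186 to 2.87 CPM (median 0.35) in RPG3 and 45.1 and 35.4 CPM in RPG4 (5.51 ± 0.82, adjusted p = 0.000324), with a UMI in 24 of 33 RPG4 cells and 36 of 261 RPG3 cells. *Fgf8*, the FGF ligand of the streak, had 0 to 1.38 CPM in RPG3 and 25.4 and 94.2 CPM in RPG4 (6.31 ± 0.70, adjusted p = 1.44e-05) and a UMI in 20 of 33 cells. *Sp5* (chr2:70474923-70477729, promoter above), a direct Wnt target, had 1.27 to 12.7 CPM in RPG3 and 29.6 and 50.9 CPM in RPG4 (2.87 ± 0.61, adjusted p = 0.00630). *Wnt8a* had 0 to 2.13 CPM against 39.4 and 8.85 CPM (5.59 ± 1.21, adjusted p = 0.00699), from 11 cells. *Foxa2*, a forkhead factor of endoderm and node, had 1.26 to 11.9 CPM in RPG3 and 51.5 and 32.4 CPM in RPG4 (3.37 ± 0.68, adjusted p = 0.00407), with a UMI in 19 of 33 RPG4 cells and 128 of 261 RPG3 cells. *Sox17*, a factor of endoderm, had at most 0.873 CPM in RPG3 and 1.52 and 32.8 CPM in RPG4 (6.26 ± 1.33, adjusted p = 0.00616), but 1 of the 6 cells with a UMI gave 92.3% of them.

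*T*, the founding T-box gene of the streak, did not pass. It had 0.0930 to 7.01 CPM (median 1.09) in RPG3 and 2.27 and 60.1 CPM in RPG4, so that 1 RPG4 sum lay inside the RPG3 range (4.18 ± 0.99, adjusted p = 0.0125). It was detected in 12 of the 33 RPG4 cells, of which 1 gave 74.0% of the UMIs, and in 69 of the 261 RPG3 cells. After thinning *T* had a UMI in 21.9% of RPG4 cells, 10.7% of RPG3 cells and 25.8% of SSC1-4 cells. It was called in 9 of the alternatives, for example without day 20 replicate 1 (adjusted p = 0.00774). *Gsc*, a homeobox gene of the organizer, had at most 1.02 CPM in RPG3 and 7.20 and 12.5 CPM in RPG4 (4.82 ± 1.21, adjusted p = 0.0172), *Cer1*, a secreted Nodal and BMP antagonist, at most 2.11 CPM and 1.14 and 39.8 CPM (6.13 ± 1.48, adjusted p = 0.0144), and *Mixl1* at most 3.21 CPM and 1.14 and 14.2 CPM (3.57 ± 1.30, adjusted p = 0.0960). *Cdx1* and *Hand1* had no UMI in either RPG4 sum and means of 3.74 and 1.73 CPM in RPG3, and did not pass. *Mesp1*, *Evx1*, *Msgn1*, *Cdx2* and *Gata6* were not tested. The deposited counts listed 21 of the 22 members of the list, and the other untested genes did not pass the filter on counts. Without day 20 replicate 2, each of the 7 calls was lost, with adjusted p from 0.0101 for *Wnt3* and 0.0107 for *Eomes* to 0.545 for *Sox17*. Without replicate 1 *Wnt3*, *Foxa2*, *Wnt8a*, *Sp5* and *Sox17* lost theirs (0.0108 to 0.266), and *Sp5*, *Wnt8a* and *Sox17* also without single RPG3 libraries (0.0105 to 0.0131).

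Several of these genes were also expressed in the spermatogonial clusters SSC1-4, which span the culture. In sums over 36 libraries, SSC1-4 had a median of 26.4 CPM of *Foxa2*, 30.4 CPM of *Wnt3* and 27.5 CPM of *Sp5*, beside 45.2, 43.3 and 43.3 CPM in RPG4 and 3.34, 0.378 and 4.80 CPM in RPG3 on the same scale. After thinning, *Foxa2* had a UMI in 59.1% of SSC1-4 cells and 34.4% of RPG4 cells, *Sp5* in 55.5% and 50.0%, and *Wnt3* in 49.3% and 62.5%. The shares of RPG3 were 25.1% (19.8% to 31%), 32.1% (26.3% to 38.4%) and 4.94% (2.58% to 8.47%), so that the interval of RPG3 overlapped that of RPG4 for *Foxa2* (18.6% to 53.2%) and *Sp5* (31.9% to 68.1%) but not for *Wnt3* (43.7% to 78.9%). *Fgf8*, *Wnt8a* and *Fgf5* were different, with SSC1-4 medians of 0.346, 0 and 0.0909 CPM.

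**Figure D3:**
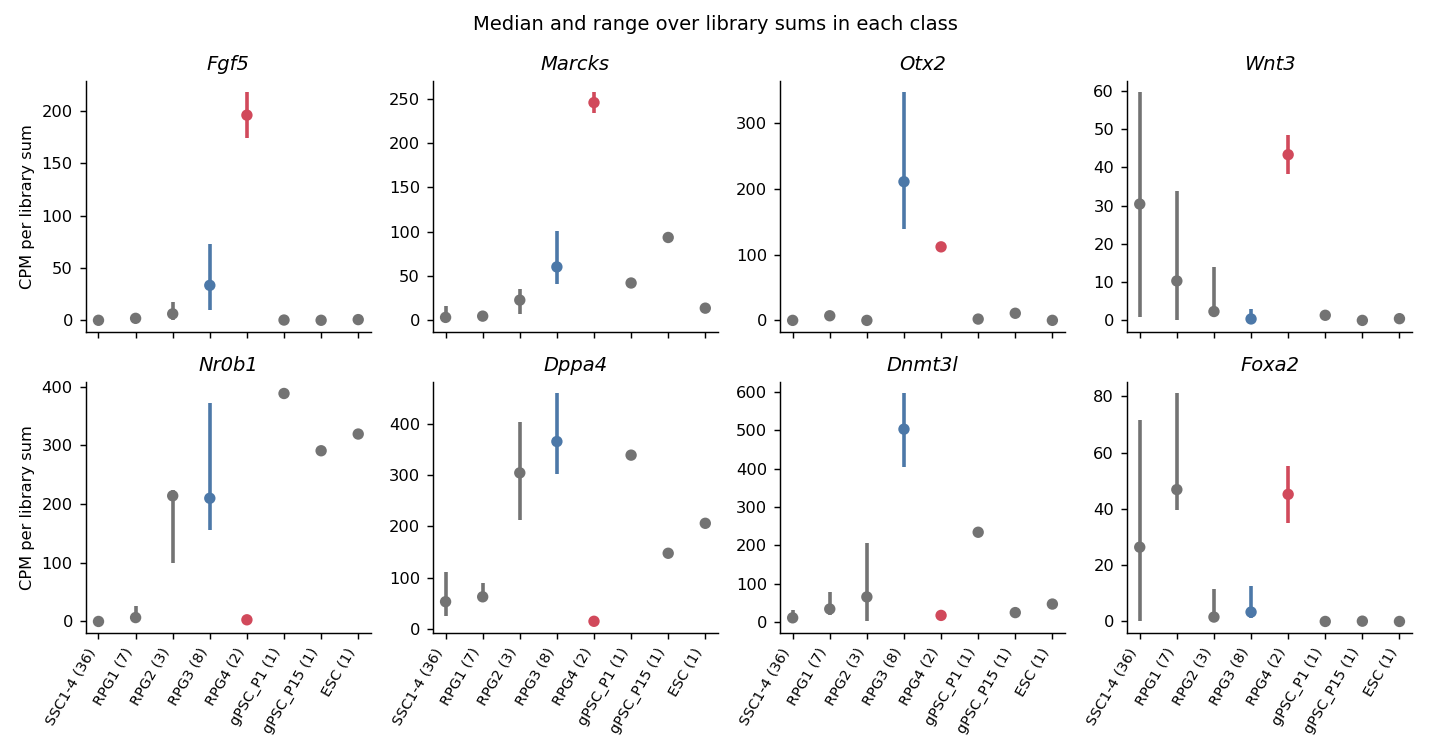
Levels of 8 genes along the clusters, as CPM scaled over all classes, with the median and range over the sums of SSC1-4 (36 libraries), RPG1 (7), RPG2 (3), RPG3 (8), RPG4 (2), gPSC at passages 1 and 15 (1 each) and ESC (1). *Fgf5* and *Marcks* peak in RPG4, *Wnt3* and *Foxa2* are high in SSC1-4, low in RPG3 and high again in RPG4, and *Nr0b1*, *Dppa4* and *Dnmt3l* are low in RPG4.

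The cells of RPG4 were uneven. Summed over the streak list, single RPG4 cells held 10.9 to 4013 CPM (median 237) and single RPG3 cells 0 to 399 CPM (median 20.9). Summed over the naive list they held 49.8 to 867 CPM (median 374) and 294 to 3896 CPM (median 2159). Between the quartiles the RPG4 cells held 275 to 497 CPM of naive genes and 95.8 to 645 CPM of streak genes. All 12 cells with *T* and all 6 cells with *Sox17* also had a UMI of *Eomes*, as 28 of the 33 cells did. Of the 6 cells with *Sox17*, 5 had *Foxa2* and all 6 had *Sox2*. Of the 8 cells with *Cer1* and the 6 with *Gsc*, 5 had both. All 28 cells with *Eomes* had *Fgf5*. The cell at 4013 CPM, from day 20 replicate 2, also gave the 92.3% of the *Sox17* UMIs, and the next cell held 2132 CPM. Its extraembryonic endoderm markers summed to 981 CPM, or 455 CPM without *Sox17* (*Gata4* and *Gata6* at 169 CPM each and *Apoa1* at 110 CPM), against a median of 14.3 CPM and at most 141 CPM in the other RPG4 cells, while *Sox7*, *Pdgfra*, *Dab2*, *Ttr* and *Amn* had no UMI in it. It gave 47.9% of the *Cer1* UMIs, 22.1% of *Foxa2*, 13.5% of *Fgf8*, 8.85% of *Eomes* and none of *T* or *Wnt3*. These are counts of cells with a UMI, at depths of 56690 to 701651 UMIs per cell, and carry no test.

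**Figure D4:**
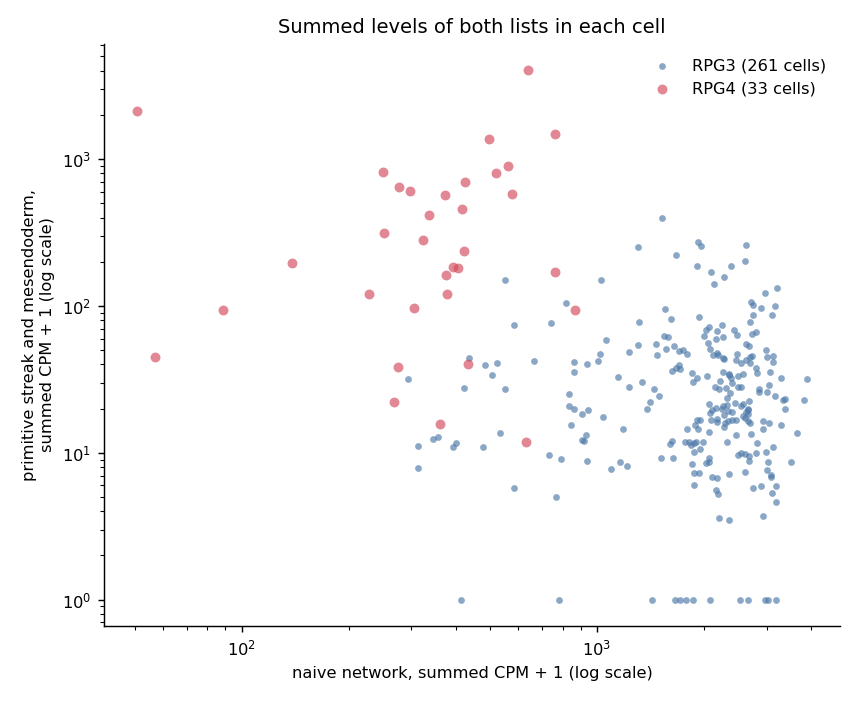
Summed expression of the naive network (x axis) and the primitive streak list (y axis) in each of the 261 RPG3 and 33 RPG4 cells, as CPM + 1 on log axes. RPG4 cells lie to the left, at 49.8 to 867 CPM of naive genes, and spread upwards to 4013 CPM of streak genes.

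The 12 RPG4 cells outside the 2 sums, from 6 libraries with 1 to 3 cells each, gave values that the test had not used. Pooled, they had 57.1 CPM of *Eomes* (9 cells with a UMI), 273 CPM of *Fgf5* (11 cells), 160 CPM of *Marcks* (12 cells) and 78.3 CPM of *Zic5* (8 cells). They had 7.47 CPM of *Dppa4*, 1.69 CPM of *Nr0b1*, 195 CPM of *Fgf8* (7 cells) and 26.5 CPM of *Wnt3* (11 cells). *Sox17* had no UMI in them, *T* had 0.482 CPM in 1 cell, and *Foxa2* had 21 CPM in 4 cells. The libraries differed. *Eomes* ranged from 2.52 CPM in the 2 cells of day 27 replicate 2 and 3.65 CPM in the 3 cells of day 14 to 132 CPM in the cell of day 23 replicate 2, and 148 of its 237 UMIs came from day 27 replicate 1. *Fgf5* ranged from 2.14 CPM in the cell of day 23 replicate 1 and 36.5 CPM on day 14 to 462 CPM in day 20 replicate 8. The cells of day 14 had 6.08 CPM of *Dppa4* and 1.22 CPM of *Nr0b1*. These cells were assigned to the cluster from the same transcriptomes, so their values describe it.

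Ligands and targets of the signalling pathways were read from lists of the whole pathway. Of 17 Wnt pathway genes tested, *Wnt3*, *Wnt8a*, *Sp5* and *Lgr5* were higher and none was lower (median 0.85). *Lgr5*, a receptor of R-spondins, was measured at up to 0.637 CPM in RPG3 and at 17.1 and 2.03 CPM in RPG4 (6.52 ± 1.33, adjusted p = 0.00445), from 4 cells of which 1 gave 78.6%, and lost its call without either RPG4 library (0.33 and 0.0141). The receptors, the TCF factors and the feedback genes of the list did not pass. Of 18 FGF and ERK genes, *Fgf5* and *Fgf8* were higher, *Fgf4* was lower and the receptors, Sprouty, Spred and Dusp genes did not pass (median -0.64). Of 16 Nodal pathway genes none passed (median 0.49). *Nodal* itself had 16.2 to 55.8 CPM in RPG3 and 70.9 and 64.7 CPM in RPG4 (1.09 ± 0.45, adjusted p = 0.140), and its feedback inhibitor *Lefty1* 3.19 to 46.7 CPM and 135 and 120 CPM (2.39 ± 0.57, adjusted p = 0.0134). Of 14 BMP genes, *Bmp2* was higher and *Bmp4* lower (median 0.23). *Bmp4* had 33.9 to 156 CPM (median 91.9) in RPG3 and 1.52 and 3.32 CPM in RPG4 (-5.09 ± 0.61, adjusted p = 3.65e-05), and it was called in every alternative. *Bmp2* had at most 1.26 CPM in RPG3 and 0.379 and 35.4 CPM in RPG4, so that the groups overlapped. Its call (6.04 ± 1.37, adjusted p = 0.00940) rests on 4 cells, of which 1 gave 93.3% of the UMIs. It was lost without single RPG3 libraries and without day 20 replicate 1 (0.0112 to 0.0194), and without day 20 replicate 2 it had too few counts.

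In the DNA methylation machinery, 2 of 9 genes were lower and none was higher (median -0.52). *Dnmt3l* (chr10:78041947-78063622), the cofactor of the de novo methyltransferases, had 374 to 549 CPM (median 473) in RPG3 and 16.3 and 15.1 CPM in RPG4, a change of -4.87 ± 0.22 (adjusted p = 5.28e-10). *Tet2*, a dioxygenase that oxidises 5-methylcytosine, had 41.4 to 84.5 CPM and 10.2 and 6.08 CPM (-3.07 ± 0.42, adjusted p = 0.000141). *Tet1* was lower in both sums but under the fold limit (-0.86 ± 0.19, adjusted p = 0.0071), and *Tet3* had 2.64 to 43.3 CPM and 61.0 and 80.4 CPM (2.32 ± 0.64, adjusted p = 0.0288). *Dnmt1*, *Dnmt3a*, *Dnmt3b* and *Uhrf1* did not pass. No germ cell gene was called higher. Of 6 genes of primordial germ cells, *Dppa3* and *Tfap2c* were lower (median -3.28). *Dppa3*, known as Stella, had 184 to 367 CPM (median 286) in RPG3 and 4.17 and 6.82 CPM in RPG4 (-5.61 ± 0.38, adjusted p = 5.31e-08), and *Tfap2c* 7.01 to 77.0 CPM and 2.65 and 0.922 CPM (-4.38 ± 0.92, adjusted p = 0.00568), a call lost without either RPG4 library or without day 23 replicate 1 (adjusted p of 0.0102 to 0.155). *Prdm14*, a factor of both germ cells and naive cells, had 0.659 to 18.9 CPM in RPG3 and a single UMI in RPG4, and did not pass (adjusted p = 0.0397). None of the 16 germline genes of the male passed (median -1.19), and 6 of them were below every RPG3 sum in both RPG4 sums.

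Among epithelial and mesenchymal genes, 1 of 16 was called (median 1.18). *Krt8*, a keratin of simple epithelia, had 3.82 to 44.7 CPM (median 22.3) in RPG3 and 236 and 189 CPM in RPG4 (3.18 ± 0.47, adjusted p = 0.000271), and a UMI in all 33 RPG4 cells. It lost the call without either RPG4 library (0.0218 and 0.0112). Its partner *Krt18* had 10.3 to 101 CPM and 167 and 201 CPM (1.78 ± 0.54, adjusted p = 0.0453), the junction gene *Cldn6* 80.3 to 254 CPM and 353 and 310 CPM (1.04, adjusted p = 0.0480), and N-cadherin *Cdh2* 0.344 to 7.95 CPM and 36.8 and 26.4 CPM (3.55 ± 0.83, adjusted p = 0.012). *Fn1*, fibronectin, had 125 to 408 CPM and 61.0 and 75.6 CPM (-1.49 ± 0.39, adjusted p = 0.0213). *Snai1*, *Snai2*, *Twist1* and *Zeb1* did not pass. Of 11 neural ectoderm genes tested, only *Nes* was called (median -0.95). *Nes*, an intermediate filament of progenitors, had 4.46 to 14.8 CPM in RPG3 and 71.6 and 82.8 CPM in RPG4 (2.81 ± 0.41, adjusted p = 0.000265), and lost the call without day 20 replicate 2 (0.0233). SSC1-4 had a median of 75.9 CPM of it. None of 19 glycolysis genes and none of 12 cell cycle genes was called (medians 0.07 and -0.57), although *Pfkp*, a phosphofructokinase, lay just under the fold limit (-1.43 ± 0.23, adjusted p = 0.000644).

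Markers of other cells that a colony could hold were summed over their lists. For these and the lists above, the lower RPG4 sum is given first, whereas gene levels give day 20 replicate 1 first. Feeder fibroblast genes stood at 13.7 to 42.1 CPM in RPG3 and 9.46 and 23.8 CPM in RPG4, with none of 6 tested genes called, and *Dcn*, *Lum* and *Postn* too low to be tested. Extraembryonic endoderm genes stood at 8.72 to 77.1 CPM and 11.5 and 102 CPM, with 1 of 7 called, *Sox17*. *Sox7*, *Gata6* and *Ttr* did not pass the filter on counts and were not tested, although *Gata6* had 169 CPM in the cell at 4013 CPM of streak genes. Trophoblast genes stood at 2.55 to 53.3 CPM and 56.6 and 78.6 CPM, with 1 of 5 called, *Krt7* (0.637 to 9.82 CPM against 72.8 and 46.1 CPM, 3.72 ± 0.75, adjusted p = 0.00415, from 11 cells), while *Cdx2*, *Elf5* and *Tpbpa* were too low. *Krt7* lost the call without either RPG4 library or day 18 replicate 5 (0.01 to 0.0917). Stress genes stood at 799 to 1268 CPM and 881 and 1050 CPM, with 1 of 11 called, *Jun*, a subunit of AP-1 (1.27 to 12.9 CPM against 50.0 and 74.3 CPM, 3.44 ± 0.63, adjusted p = 0.00198), which lost the call without either RPG4 library (0.0101 and 0.0941). The part of such cells in the streak genes was not tested.

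The 10 higher genes with the largest fold change were named among those with a mean of at least 10 CPM and no overlap between the classes. Outside unnamed models they were *Ly6d* (7.89), *Kcnj3* (7.33), *Thsd7a* (7.23), *Sp8* (7.05), *Fabp7* (6.99), *Ldb2* (6.81), *Frzb* (6.76), *Il18* (6.69), *Cyp26a1* (6.49) and *Penk* (6.46). The first 9 rest on 4 of the 33 cells (*Ly6d*) to 15 (*Kcnj3* and *Cyp26a1*). *Penk*, which encodes an opioid precursor, was the broadest, with a UMI in 26 of the 33 RPG4 cells, at 0 to 6.79 CPM in RPG3 and 276 and 138 CPM in RPG4 (6.46 ± 0.64, adjusted p = 3.84e-06), and it kept its call in every alternative. Its share of cells after thinning was 78.1% in RPG4, 14.8% in RPG3 and 29.5% in SSC1-4. *Cyp26a1*, the enzyme that clears retinoic acid, had at most 2.93 CPM in RPG3 and 37.1 and 62.1 CPM in RPG4. *Frzb*, a secreted Wnt antagonist, had at most 1.05 CPM and 14.4 and 24.2 CPM. Each of the 10 but *Penk* lost its call without 1 or both of the RPG4 libraries (adjusted p of 0.0105 to 0.178).

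Among the lower genes of this rule, *Slco4c1*, an organic anion transporter, had 720 UMIs in RPG3 and none in RPG4, which makes it at least 23.5-fold lower when 3 counts are allowed for the whole of RPG4. *Triml2* had 3095 UMIs in RPG3 and 1 in RPG4, a ratio of 304 (95% counting interval 54.5 to 11998). *H2.M5*, a class I gene of the major histocompatibility complex, had 3671 UMIs and 3, a ratio of 120 (41.0 to 582), and 30.9 to 72.2 CPM in RPG3 against 0.379 and 0.369 CPM. The others given here were *Kndc1*, *Ly6g6c*, *C78283*, *Aldh1b1*, *Chrna9* and *Rnf125*, each with 1 or 2 UMIs in the RPG4 sums and a ratio from 98.8 (27.3 to 816) for *Chrna9* to 176 (31.5 to 6948) for *Kndc1*. In all 33 RPG4 cells *C78283*, *Aldh1b1* and *Rnf125* had 25, 35 and 45 UMIs, most of them in cells outside the sums, and with sums of at least 1 cell their log2 fold changes were -1.37, -1.65 and -1.52 and none was called (adjusted p = 0.531, 0.329 and 0.326). *Triml2*, *H2.M5* and *Chrna9* kept their calls in every alternative, and the others given here lost theirs without day 20 replicate 1 or replicate 2 (adjusted p of 0.0175 to 0.160).

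The scTrio-seq2 cells offered sums that the clustering had not used, 3 of RPG4 (5 or 6 cells, 504212 to 602514 UMIs) against 8 of RPG3. Their classes were predicted by a classifier trained on the STRT-seq cells, so that the genes it learned are not independent of the classes, and treatment was a covariate. Of 9945 genes tested, 41 (0.412%) were higher and 126 (1.27%) lower. With the sample as a block, 21 and 95 were. Of the 298 genes lower in the STRT-seq experiment, 284 were tested, 269 lay on the same side and 75 were called lower, which is 59.5% of the 126. Of the 174 higher genes only 84 had enough counts, 79 of which lay on the same side and 12 were called, 29.3% of the 41. None was called on the opposite side. The median log2 fold change of the 284 and 84 tested genes was -1.88 and 1.27, against -3.85 and 2.4 for the same genes in the STRT-seq experiment.

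**Figure D5:**
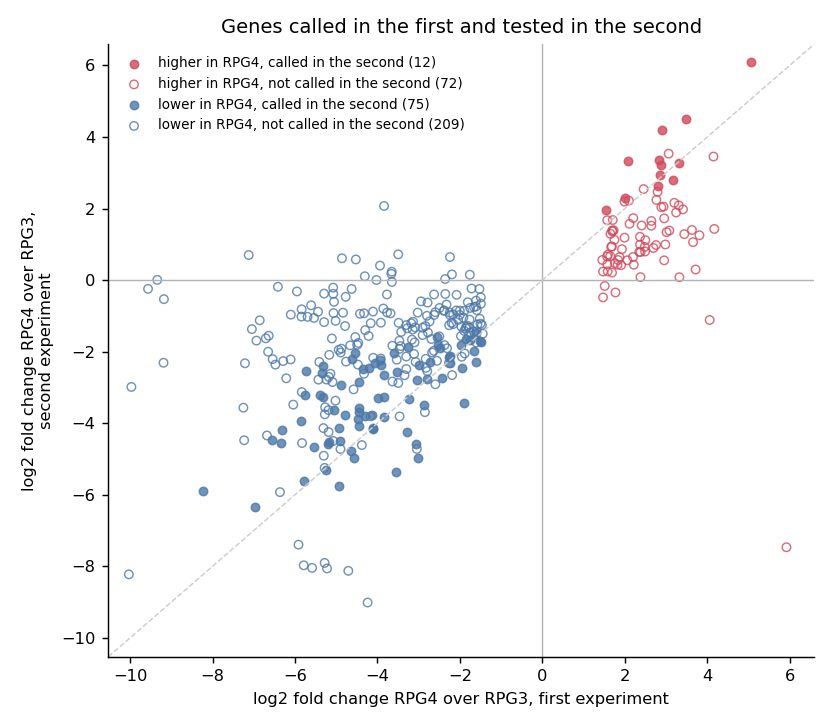
Log2 fold change of RPG4 against RPG3 in the STRT-seq experiment (x axis) and the scTrio-seq2 experiment (y axis), for the called genes of the first that were tested in both. Filled points were called in both (12 higher, 75 lower), and the dashed line marks equal changes. Of the lower genes, 269 of 284 also lie below 0 on the y axis.

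Of the 18 naive genes, 12 were called lower, with a median of -2.46. *Nr0b1* had 161 to 394 CPM in RPG3 and 17.4 CPM (5C), 6.6 and 10.4 CPM (DMSO) in RPG4 (-4.54 ± 0.36, adjusted p = 2.26e-07). *Esrrb* had 119 to 224 CPM and 25.2, 2.2 and 5.19 CPM (-3.63 ± 0.38, adjusted p = 7.26e-06), and *Prdm14* 8.15 to 23.4 CPM and no UMI in RPG4 (adjusted p = 0.00999). Of the core genes 5 of 14 were lower, among them *Sox2* (-1.49 ± 0.23, adjusted p = 0.000468), *Dppa4* (-2.21 ± 0.33, adjusted p = 0.000381) and *Nanog*. *Nanog* had 177 to 368 CPM in RPG3 and 33.1, 50.6 and 53.7 CPM in RPG4 (-2.78 ± 0.21, adjusted p = 1.2e-07), and its change differed from that in the STRT-seq sums by -2.4 on the log2 scale (adjusted p = 0.000186 for the interaction of class and experiment, a test added after the values were seen). *Dppa3* had 134 to 878 CPM and 495, 59.4 and 106 CPM and did not pass (-0.70 ± 0.50, adjusted p = 0.478), a difference between the experiments of 4.82 (adjusted p = 0.00153). *Pou3f1* was called higher here, with 15.5 to 42.8 CPM in RPG3 and 296, 229 and 173 CPM in RPG4 (3.06 ± 0.31, adjusted p = 3.93e-06), and differed from the STRT-seq change by 3.20 (adjusted p = 0.00224). *Dnmt3l* did not pass (-1.92).

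*Eomes*, *Wnt3* and *Fgf8* were not high in RPG4 of this experiment. *Eomes* had 90 UMIs in RPG3 (3.59 CPM) and 4 of 1650872 UMIs in RPG4 (2.42 CPM, with an exact Poisson upper bound of 6.2 CPM), where the lower STRT-seq sum, at 75.8 CPM, would have given 125 UMIs. *Wnt3* had 17 UMIs in RPG3 and none in RPG4, and *Fgf8* 5 and none. For a count of 0 a floor of 3 counts was used in place of the exact bound. It equals 1.82 CPM, below the 35.4 and 25.4 CPM of the lower STRT-seq sums. These genes had too few UMIs for the test, and the difference between the experiments did not pass for *Eomes* (adjusted p = 0.175) or for *Wnt3* and *Fgf8* (0.335 for both). *Foxa2* had 64 UMIs (2.55 CPM) and 38 (23 CPM), untested. *Fgf5* was listed with the DMSO samples alone, at 12.02 and 11.7 CPM in RPG3 and 149 and 59.7 CPM in RPG4, with a UMI in 5 of 6 and 3 of 5 RPG4 cells and no test. *Sp8*, *Sox17* and *Wnt8a* were not listed for both treatments. *Zic5* had 12.9 to 70.3 CPM in RPG3 and 58.4, 81.4 and 119 CPM in RPG4 (1.2 ± 0.48, adjusted p = 0.158), and *Marcks* 7.95 to 116 CPM and 17.4, 110 and 102 CPM (0.87 ± 0.84, adjusted p = 0.635). *Sp5* was called (2.94 ± 0.62, adjusted p = 0.00733), but all its RPG4 UMIs came from the 5C sum (214 CPM), with 0 in both DMSO sums. The 5C sum is of day 14 and the DMSO sums of day 20, so that treatment and day cannot be told apart here. *Nes* (75.7, 30.8 and 57.1 CPM against 6.21 to 18 CPM, 2.63 ± 0.44, adjusted p = 0.00101) was called, as were *Krt8* and *Krt18* (2.80 and 2.45, adjusted p = 0.00532 for both). Of 10 epithelial and mesenchymal genes tested in this experiment, these 2 keratins were higher and 1 gene was lower. For both keratins the RPG4 sum of 5C, 11 and 12.6 CPM, lay inside the RPG3 range, and the DMSO sums, 288 and 334 CPM of *Krt8*, lay far above it.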

How the data were processed

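Single cells of the reprogramming culture were measured by modified STRT-seq, and cells cultured with 5C or DMSO by scTrio-seq2. The authors aligned reads to mm10 with STAR 2.7.2b, assigned them to genes with featureCounts 2.0.0 and deposited UMI counts per gene and cell, unnormalised, together with the class, batch and mitochondrial percentage of each cell. In all 4464 cells the summed counts equalled the annotated total. The classes of the scTrio-seq2 cells were those the authors predicted, read from the paper's cell table. In that experiment 416 cell columns, of parts without predicted RPG3 or RPG4 cells, were not used. Methylation files were not analysed here.

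Counts of 24615 genes were summed per library and class where at least 5 cells were present, filtered with filterByExpr, scaled by TMM and tested with the quasi-likelihood test of edgeR 4.0.16 (limma 3.58.1, R 4.3.3), which was first tested on simulated data. Shares of cells with a UMI were computed with Python 3.11, pandas 2.3.3 and scipy 1.17.1 after thinning to 100000 UMIs. In scTrio-seq2, 15426 genes were in both tables. DESeq2 1.42.0 served as an alternative, and the other alternatives changed the scaling, the filter, the cells per sum, the batch, the block and the libraries. Total UMIs per sum were 1570976 to 17474953, so that genes of a few CPM rest on few molecules. Intervals and floors cover counting error only. No doublet caller was run, since cells were picked by mouth pipette. The 294 cells had 294 distinct names, with 95 distinct barcode numbers among them, since libraries used the same barcodes.

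The clusters and gene lists were chosen with earlier results of these data known. Genes were named as members of the lists and as the 10 called genes per direction with the largest fold change, among those with a mean of at least 10 CPM in the higher class, no overlap between the classes and the same direction in each library that holds both. One lower gene that met this rule is not reported here. The members given with values were narrowed, and the genes of the last section, the motifs and the test of class by experiment were added, after the values were seen. Gene positions are those of GENCODE on GRCm38, found for 287 of 291 named genes. In the pairing check, the RPG3 and RPG4 sums of day 20 replicates 1 and 2 deviated from their class means with a correlation of 0.0683 over 9057 genes, below 0.1, and the fit without the block was reported first. Only these libraries hold both sums and both gave the same value, so the check cannot show that pairing is absent.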

Additional observations from a re-analysis of the deposited data

Results flagged for a closer look

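In 23 of the 90 genes described by value, 1 RPG3 library stood far above the other 7 by Dixon's criterion, which chance exceeds in about 1 of 20 groups. Of all 234 tested list members, 50 were so marked, 28 of them in day 12 replicate 2, which rests on 7 cells. In day 12 replicate 2 the levels were 230 CPM of *Klf4*, 182 CPM of *Esrrb*, 141 CPM of *Tfcp2l1*, 150.3 CPM of *Tead2*, 7.01 CPM of *T*, 0.637 CPM of *Lgr5*, 43.3 CPM of *Tet3*, 408 CPM of *Fn1* and 77.7 CPM of *Ly6g6c*. Without this library, 302 genes were called higher and 458 lower, against 174 and 298 with it.

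In day 20 replicates 1 and 2, the libraries that also held the RPG4 sums, the RPG3 sums were the highest for several genes that RPG4 expressed. Replicate 1 had 0.372 CPM of *Sp8*, 0.279 CPM of *Thsd7a* and 0.651 CPM of *Fabp7*, and replicate 2 had 2.11 CPM of *Cer1*, 0.937 CPM of *Ly6d*, 1.05 CPM of *Frzb* and 2.93 CPM of *Cyp26a1*. Each of these was below the RPG4 sum of the same library. Whether the same-library levels bear on each other was not tested.

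In day 23 replicate 2, RPG3 had 18.9 CPM of *Prdm14*, 3.21 CPM of *Mixl1*, 1.26 CPM of *Bmp2* and 2.29 CPM of *Drc1*. Day 18 replicate 5 had 2.13 CPM of *Wnt8a*, day 23 replicate 1 had 3.61 CPM of *Nme5* and day 20 replicate 8 had 6.26 CPM of *Lrriq1*.

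The change from RPG3 to RPG4 differed between the experiments for 5 named genes, in a fit over the 13627 genes of both with a class by experiment term (edgeR, adjusted p below 0.01), which was added after the values were seen. As scTrio-seq2 minus STRT-seq on the log2 scale, the differences were -2.4 for *Nanog*, 2.31 for *Dppa4*, 4.82 for *Dppa3*, 2.65 for *Fbxo15* and 3.2 for *Pou3f1*. Over all genes, 13 differences were above 0 and 5 below.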

How the results depend on the processing

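The reported test called 174 genes higher and 298 lower in RPG4. DESeq2's Wald test called 323 and 579, an adjusted p below 0.05 with no fold limit 544 and 783, and sums per batch and day 61 and 130. The pairing of sums by library was not clear from their deviations, and a replicate block for the library gave 273 and 370, or 63 and 254 with sums of at least 1 cell, a setting added after the data were seen. In the latter, *Marcks*, *Fgf5*, *Foxa2* and *Sox11*, among others, were no longer called (edgeR adjusted p of 0.0143 to 0.274). Leaving out 1 library gave 34 to 302 higher and 103 to 458 lower genes, the fewest without day 20 replicate 2 and the most without day 12 replicate 2. Size factors of DESeq2, library totals, no filter, other minimum cell numbers, batch terms and thinning kept both counts within 1.5 times. In scTrio-seq2, where 41 and 126 were called, the Wald test gave 124 higher, DMSO samples alone 20 and 63, the block 21 higher, an adjusted p below 0.05 (added after the data were seen) 142 and 439, and leaving out 1 sample 15 to 43 and 74 to 145. The share of RPG4 cells with *Fgf5* was 97.0% without thinning against 87.5%. Of 67 called genes given by value none changed direction and 16 kept their call throughout, and of the 38 called list members 11 did. Among uncalled ones, 91 of 196 list members changed direction under some setting. Of the 21 list medians 10 changed sign under some setting, while the naive median lay between -4.84 and -3.92 and the streak median between 2.34 and 4.53. *Pou3f1* (-0.23) turned to 0.11 with at least 1 cell, 0.079 with at least 10, 0.058 within B1, 0.046 with batch as a covariate, 0.11 with the block and at least 1 cell and 0.23 per batch and day, with -0.50 to 0.0087 over the left-out libraries. *Dnmt3b* (0.11) turned to -0.10 per batch and day. The cause of these changes was not tested. Depth limits genes of a few CPM, which rest on few UMIs.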

Other observations

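Some further called genes were picked after their values were seen, so that they describe no group. *Foxj1*, a regulator of motile cilia, had 0 to 4.79 CPM in RPG3 and 23.5 and 53.3 CPM in RPG4 (4.60 ± 0.98, edgeR adjusted p = 0.00626). Its RPG4 UMIs came from 9 cells, of which 1 gave 58.4%, and 7 of the 9 also had *Foxa2*. *Rfx3*, which acts with it, had 1.81 to 7.35 CPM and 94.3 and 39.4 CPM, in 20 cells. *Pifo* and *Enkur*, proteins of cilia, each had a UMI in 14 RPG4 cells, with log2 fold changes of 5.28 and 4.30, and *Drc1* in 5 cells, of which 1 gave 80.4%. *Foxj1*, *Pifo* and *Enkur* lost their call without either RPG4 library (adjusted p of 0.0102 to 0.337), *Foxj1* also without day 18 replicates 3 or 5 or day 23 replicate 2 (0.0108 to 0.013), and *Drc1* without day 20 replicate 2, where its change was 1.03 (0.802). *Rfx3* lost its call without day 20 replicate 1 (0.0217), with sums of at least 1 cell (0.0247) and per batch and day (0.0638). In the 12 RPG4 cells outside the sums, *Foxj1* had 6.99 CPM in 2 cells, *Rfx3* 6.99 CPM in 6, *Pifo* 9.16 CPM in 2, *Enkur* 2.41 CPM in 7 and *Drc1* 0.241 CPM in 1, far below the higher of the 2 sums for each and, for *Rfx3*, *Enkur* and *Drc1*, inside the range of the RPG3 libraries. *Enkur* had a higher share of cells with a UMI in SSC1-4 (53.5% after thinning) than in RPG4 (21.9%), so that nothing is read from its share.

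Secreted antagonists were measured too. *Chrd*, which binds BMP ligands, had 0.234 to 4.95 CPM in RPG3 and 29.6 and 35.8 CPM in RPG4, with 55.3% of the UMIs in 1 of 15 cells. It lost its call without either RPG4 library (adjusted p of 0.0445 and 0.0802) and had 5.06 CPM in the 12 cells outside the sums, near the highest RPG3 library. *Fst*, which binds activin, had 0 to 7.13 CPM and 117.5 and 102.5 CPM (5.41 ± 0.65, edgeR adjusted p = 3.37e-05), from 26 of the 33 cells, and kept its call in every alternative. Its share of cells after thinning was 68.8% in RPG4, 11.1% in RPG3 and 26.2% in SSC1-4. In the 12 outside cells *Fst* had 130.9 CPM, in 10 cells.

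The limits are few. Only 2 sums of RPG4 enter the STRT-seq test, both of day 20 and batch B1, so that the other days and the other batch enter through RPG3 alone. The classes were made from the same transcriptomes. Cells were picked, so their numbers are not proportions of the culture. Genes in few RPG4 cells rest on those cells.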
